A study of Rattus norvegicus with 7 samples.

Results

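The solute carriers are the large superfamily of membrane proteins that move sugars, amino acids, ions, metals, nucleosides and mitochondrial metabolites. The genes described here are those with a rat symbol made of Slc and a family number. Families whose main work is transmitter uptake or vesicle filling (Slc1, Slc6, Slc17, Slc18 and Slc32) were left out. The equilibrative nucleoside carriers (Slc29) were left out too, as were Slc5a7, Slc11a2, Slc40a1, Slc4a4 and Slc22a6. The rule used only the accession of each probe and no measured value. It gave 139 genes, read by 173 probes, of the 6046 genes that could be named on an array of 33849 transcript probes. A gene was represented by its tested probe with the highest mean signal, and 32 genes had more than 1 probe.

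RNA came from the whole brain of adult male Wistar rats of 2 selectively bred lines, alcohol-preferring (P, n = 4, replicates 1 to 4) and alcohol non-preferring (NP, n = 3, replicates 2 to 4). All of them were alcohol-naive and doubly housed, and each rat had its own 1-colour array. The authors left out 1 further NP array in quality control. The comparison of the lines asks what differs in the brain before any alcohol was given. A line difference of selectively bred animals holds whatever else became fixed during breeding, and whole brain mixes all regions.

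In the brain these carriers divide labour between cell types. Glucose and lactate carriers pass fuel from blood to glia and neurons, and heteromeric carriers bring large neutral amino acids across the capillary wall. Cation-chloride cotransporters set the chloride gradient on which inhibitory transmission depends, zinc carriers load vesicles and organelles, and the mitochondrial family exchanges nucleotides, phosphate and acids across the inner membrane.

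No solute carrier differed between the lines at an adjusted p under 0.05 by limma, against 0.29% of all 29003 tested probes (84 probes). Most differences were small and more of them lay above 0 than below. Of the 132 genes that could be tested, 92 (69.7%) had a P minus NP difference above 0, against 51.4% of all tested probes and 56.2% of named genes. Their median difference was 0.13 on the log2 scale, against 0.0078 over all tested probes and 0.032 over named genes, and single genes ran from -0.75 to 0.57. At an unadjusted p under 0.05 there were 25 solute carriers (18.9%), against 11.5% of all tested probes and 11.4% of named genes. Higher in P were 21 (15.9%, against 5.7% of probes and 7.05% of named genes). Lower were 4 (3.03%, against 5.84% and 4.35%). The 4 include Slc24a1, which was above background on no P array. With 1 array left out the 25 ran from 12 (without NP 4, with 6.22% of all probes) to 28 (without P 3, with 16.5%). A plain equal-variance test per probe also called 0 solute carriers. No test compares these shares with other genes, and genes on the same arrays are not independent. In RNA from whole tissue, fewer cells of a type and less RNA per cell cannot be told apart.

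**Figure D1:**
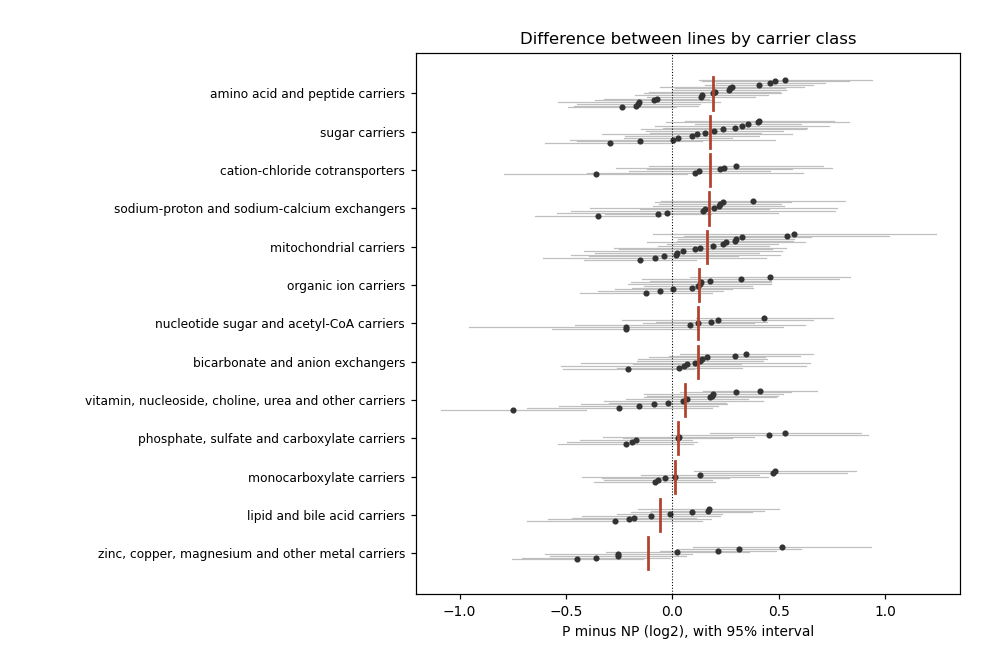
P minus NP difference of each of the 132 tested solute carriers (points, log2 scale) with its 95% interval (grey lines), by carrier class. Red bars are class medians, which ran from -0.12 for metal carriers to 0.19 for amino acid and peptide carriers.

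Between 123 and 130 of the 139 genes (88.5% to 93.5%) read above background on an array, against 87.9% to 92.1% of all named genes and 77.9% to 85.9% of all probes. Of the solute carriers, 107 did so on all 7 arrays, and Slc39a6 and Slc47a1 did so on none. Of the 7 genes not tested, Slc39a6, Slc34a1, Slc4a7, Slc7a12, Slc7a13 and Slc28a3 were above background on too few arrays, and every spot of Slc47a1 was excluded by its quality flag. Slc7a12, an amino acid carrier, was above background on 2 of 4 P arrays and on no NP array. With the dim NP signals replaced by the lowest signal above background, the P mean was 1.09-fold higher. That mean includes P arrays not above background, so the fold is not a lower bound. Before normalization the median negative control spot read 6.19 to 6.33 per array. Neuron, astrocyte and oligodendrocyte markers were present, with summed linear signals of 7890 to 12400, 14800 to 17100 and 25400 to 30100 per array. Over all 7 arrays 0 of 47 tested markers of the 8 cell type lists were called by limma. Of the 47, 6 had an unadjusted p under 0.05 by limma, all of them lower in P. Of all tested probes 11.5% did, 5.7% higher and 5.84% lower. Scanning took place on 3 dates. Date 1 holds P 1, P 2, NP 2 and NP 3, date 2 only NP 4, and date 3 only P 3 and P 4, so date 1 alone holds both lines.

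The promoters of 4 genes on which the results turn are shown as the 250 bases before an annotated start in RefSeq's GRCr8 assembly, read on the gene's strand. Slc39a7 and Slc3a2 each had a second annotated start, whose window is not shown. Slc28a2 had the lowest difference of the tested genes, the second probe of Slc39a7, singled out after its value was seen and not called, read lower still in P, and Slc7a5 and Slc3a2 encode the light and heavy chain of 1 amino acid carrier. Capitals mark matches, on either strand, to TGCGCNC, a core of the metal response element bound by the zinc-sensing factor of metallothionein genes. The windows lie at chr3:129819538-129819787 (+ strand) for Slc28a2, chr20:4824809-4825058 (+ strand) for Slc39a7, chr19:66872413-66872662 (- strand) for Slc7a5 and chr1:215048065-215048314 (- strand) for Slc3a2.
Slc28a2: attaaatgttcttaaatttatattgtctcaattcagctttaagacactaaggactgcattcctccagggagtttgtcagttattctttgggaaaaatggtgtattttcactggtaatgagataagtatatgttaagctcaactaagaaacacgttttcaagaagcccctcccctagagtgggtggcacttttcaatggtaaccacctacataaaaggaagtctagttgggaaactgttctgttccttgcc
Slc39a7: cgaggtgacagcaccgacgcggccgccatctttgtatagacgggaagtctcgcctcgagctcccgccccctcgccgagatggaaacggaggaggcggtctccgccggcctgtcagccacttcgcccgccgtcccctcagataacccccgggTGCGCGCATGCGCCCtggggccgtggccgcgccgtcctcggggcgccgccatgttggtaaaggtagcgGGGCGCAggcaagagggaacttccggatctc
Slc7a5: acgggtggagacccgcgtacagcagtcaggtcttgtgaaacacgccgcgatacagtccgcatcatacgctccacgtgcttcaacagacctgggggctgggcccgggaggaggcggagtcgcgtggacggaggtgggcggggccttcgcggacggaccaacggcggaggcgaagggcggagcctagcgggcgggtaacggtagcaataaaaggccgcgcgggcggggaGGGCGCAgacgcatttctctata
Slc3a2: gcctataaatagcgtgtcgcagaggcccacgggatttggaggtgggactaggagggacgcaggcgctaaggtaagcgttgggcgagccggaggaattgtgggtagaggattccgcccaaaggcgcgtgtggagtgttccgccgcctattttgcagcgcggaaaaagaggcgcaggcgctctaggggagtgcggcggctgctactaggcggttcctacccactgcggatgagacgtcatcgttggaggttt
The Slc39a7 window held 4 matches. The first 2 overlap on opposite strands, at -99 to -93 and -98 to -92 from the start used. The others lie at -91 to -85 and -31 to -25. From the second Slc39a7 start the same matches lie at -137 to -131, -136 to -130, -129 to -123 and -69 to -63. The Slc7a5 window held 1 match, at -23 to -17, and no match was found in the Slc28a2 and Slc3a2 windows. The window of the second Slc3a2 start held no match either. The Slc28a2 window is 38.0% G and C, and the Slc39a7 window 70.0%. Over all 33469 promoters of this length 11.8% held TGCGCNC, and 22.1% of the 122 promoters of the 117 solute carrier genes that matched. For the other form of that core, TGCACNC, the shares were 10.3% and 10.7%, for the GC box GGGCGG 30.5% and 47.5%, and for TGATGNAA, a core of the amino acid response element, 3.4% and 1.64%. A match is a string of letters and not a shown binding site.

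Among nucleoside, vitamin and choline carriers, Slc28a2, a sodium-driven carrier of purine nucleosides such as adenosine, had the smallest p of all solute carriers. It read 7.56, 7.68, 7.30 and 7.25 in P 1 to P 4 and 8.09, 8.04 and 8.46 in NP 2 to NP 4, in log2 normalized signal. Every NP value was above every P value. The difference was -0.75 ± 0.15 (SE, 95% interval -1.09 to -0.41), with an adjusted p = 0.126 by limma, so it was not called. It was called without P 1 and P 2 (-0.92, adjusted p = 0.031 by limma) and without P 3 and P 4 (-0.57, adjusted p = 0.0372 by limma), 2 fits in which more probes passed over the whole table. With scan date as a block it was -0.44 ± 0.12 (adjusted p = 0.0659 by limma). The related Slc28a1 differed by -0.023, and the equilibrative nucleoside carriers are not among these genes.

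Slc49a4, a lysosomal membrane carrier, read 8.60, 8.50, 8.43 and 8.57 in P 1 to P 4 and 8.18, 8.24 and 7.92 in NP 2 to NP 4, a difference of 0.41 ± 0.12 (adjusted p = 0.301 by limma) with no overlap. The urea carrier Slc14a1 also did not overlap, at 7.31 to 7.58 in P and 7.10 to 7.28 in NP. The folate carrier Slc19a1 (0.18 ± 0.14) and the choline carrier Slc44a1 (-0.16 ± 0.17) overlapped between the lines.

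Amino acid and peptide carriers had 17 tested genes, of which 11 lay above 0, with a class median of 0.19. Slc15a4, a proton-driven peptide and histidine carrier of lysosomes, read 9.63, 9.82, 9.61 and 9.74 in P 1 to P 4. In NP 2 to NP 4 it read 9.21, 9.36 and 9.16, so the lines did not overlap, and the difference was 0.46 ± 0.12 (adjusted p = 0.244 by limma). It was much the same with scan date as a block, at 0.44 ± 0.13 (adjusted p = 0.0795 by limma).

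Slc7a5, the light chain that carries large neutral amino acids and thyroid hormone across the blood-brain barrier, read 8.19, 8.37, 8.30 and 8.26 in P 1 to P 4 and 7.94, 7.74 and 7.95 in NP 2 to NP 4. The lines did not overlap, and the difference was 0.41 ± 0.11 (adjusted p = 0.284 by limma). Its heavy chain Slc3a2, which brings the light chain to the membrane, read 11.02, 11.15, 11.09 and 11.11 in P against 10.65, 10.92 and 10.89 in NP. That was also without overlap, with a difference of 0.27 ± 0.12 (adjusted p = 0.418 by limma). A second Slc3a2 probe gave 0.25 ± 0.20. Of the other tested members of these 2 families, Slc7a7 differed by 0.28, Slc7a9 by 0.19, Slc7a3 by -0.09 and Slc3a1 by -0.16.

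The sodium-coupled neutral amino acid carriers did not move as 1 set. Slc38a3, the glutamine carrier of astrocytes, read 9.50, 9.29, 8.95 and 9.09 in P 1 to P 4 and 8.95, 8.58 and 8.64 in NP 2 to NP 4. Its difference was 0.48 ± 0.16 (adjusted p = 0.332 by limma), with P 3 level with NP 2. The related Slc38a5 read 8.15, 8.54, 8.02 and 7.66 in P against 7.49, 7.66 and 7.53 in NP, a difference of 0.53 ± 0.18 (adjusted p = 0.353 by limma). Slc38a1 (0.20 ± 0.14) and Slc38a2 (-0.07 ± 0.11), which supply neurons with glutamine, were not called either. Slc38a4 lay below NP in every P rat, at 6.52 to 6.77 against 6.87 to 6.90, with a difference of -0.24 ± 0.11. The peptide carrier Slc15a2 lay above NP in every P rat (0.27 ± 0.12, second probe 0.17 ± 0.17).

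Sugar carriers lay above 0 for 12 of 14 genes, with a class median of 0.18. Slc2a3, the main glucose carrier of neurons, read 8.06, 8.18, 8.15 and 8.10 in P 1 to P 4 and 7.81, 7.86 and 7.63 in NP 2 to NP 4. Every P value was above every NP value, and the difference was 0.36 ± 0.11 (adjusted p = 0.328 by limma, second probe 0.22 ± 0.15). Slc2a1, the glucose carrier of brain capillaries and glia, differed by 0.15 ± 0.12 and by 0.22 ± 0.15 on its second probe, with overlap. Slc45a1, a proton-linked sugar carrier, differed by 0.12 ± 0.20. Slc37a1, a glucose-6-phosphate exchanger, gave opposite signs on its probes, -0.30 ± 0.14 and 0.22 ± 0.13.

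Among the monocarboxylate carriers, Slc16a1, which moves lactate and ketone bodies in endothelium and glia, read 9.04, 9.07, 8.79 and 8.99 in P 1 to P 4 and 8.73 and 8.24 in NP 3 and NP 4, while its NP 2 spot was excluded. The difference over those 6 arrays was 0.48 ± 0.17 (adjusted p = 0.365 by limma), and its second probe, measured on all 7, gave 0.12 ± 0.14. Without NP 4 the difference of Slc16a1 was 0.24 and without NP 3 it was 0.73. Slc16a13 read 8.20 to 8.51 in P and 7.47 to 8.02 in NP (0.47 ± 0.16, adjusted p = 0.339 by limma), with no overlap, and differed by 0.29 without NP 4. The lactate carriers Slc16a3 (-0.03 ± 0.13) and Slc16a7 (-0.07 ± 0.11) overlapped.

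Among carboxylate and phosphate carriers, Slc13a5, the sodium-driven citrate carrier, read 8.47, 8.76, 8.17 and 8.25 in P 1 to P 4 and 7.73, 7.85 and 8.07 in NP 2 to NP 4. The lines did not overlap, and the difference was 0.53 ± 0.16 (adjusted p = 0.311 by limma). The dicarboxylate carrier Slc13a2 differed by -0.22 ± 0.14 (second probe -0.0052 ± 0.11) and the phosphate carrier Slc20a1 by -0.19 ± 0.14. Among organic ion carriers, Slc22a8, which clears organic anions at the blood-brain and blood-cerebrospinal fluid barriers, read 8.39, 8.06, 7.80 and 7.77 in P 1 to P 4 and 7.74, 7.56 and 7.35 in NP 2 to NP 4. Its difference was 0.46 ± 0.17 (adjusted p = 0.375 by limma), without overlap though P 4 and NP 2 were close. Slc22a3, a low-affinity monoamine carrier, differed by 0.0036 ± 0.12, the carnitine carrier Slc22a5 by -0.12 ± 0.14 and Slc22a17 by 0.18 ± 0.13. The second probes of Slc22a3 and Slc22a5 gave -0.11 ± 0.11 and 0.018 ± 0.12.

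Slc7a5, Slc38a5, Slc2a1 and Slc22a8 are known in barrier cells, so the barrier marker lists are given here. The 3 summed endothelial markers reached 2610 to 3160 in P and 2550 to 2970 in NP, in linear signal. The 9 summed choroid plexus markers reached 5970 to 8060 in P and 6500 to 9180 in NP, and Clic6 was above background on no array. Both ranges overlapped between the lines. The smallest p of each list was that of Abcb1a (-0.55 ± 0.18) and of Kcne2 (-0.32 ± 0.13), both lower in P and neither called when the 7 arrays were fitted without a block. The lists were split there, with 2 of 4 tested endothelial and 5 of 8 tested choroid plexus markers above 0. Their medians were 0.037 and 0.083. In the fit blocked by scan date Abcb1a was called lower (-0.73, adjusted p = 0.0354 by limma), while 2 of 4 endothelial markers lay above 0. The part of these cells in the carrier values was not tested.

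The metal carriers had the lowest class median, -0.12, with 4 of 8 tested genes above 0 and 4 below. Slc30a4, a zinc exporter of intracellular vesicles, read 8.09, 7.84, 8.25 and 8.14 in P 1 to P 4 and 8.51, 8.36 and 8.71 in NP 2 to NP 4. The lines did not overlap, with a difference of -0.45 ± 0.14 (adjusted p = 0.319 by limma). Slc30a3, which fills synaptic vesicles with zinc, lay the other way (0.52 ± 0.19, adjusted p = 0.37 by limma), with overlap because NP 2 at 9.72 was above P 3 at 9.60. Slc39a8, a zinc and manganese importer (-0.36 ± 0.16), and Slc30a1, the zinc exporter of the cell surface (-0.25 ± 0.16), overlapped too. Without NP 4 Slc39a8 differed by -0.22.

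Slc39a7, which releases zinc from the endoplasmic reticulum and Golgi, was read by a pair of probes that disagreed in size. The brighter probe, GE1250600, read 8.87, 8.89, 8.48 and 8.55 in P 1 to P 4 and 9.09, 8.99 and 8.79 in NP 2 to NP 4, a difference of -0.25 ± 0.14 (adjusted p = 0.499 by limma). The second probe, GE13765, read 7.20, 6.82, 8.09 and 7.03 in P and 8.65, 8.86 and 8.52 in NP, with no overlap and P 3 nearest to NP. Its difference was -1.39 ± 0.26 (adjusted p = 0.0816 by limma), and it was singled out after its value was seen. It was called with scan date as a block (-1.74, adjusted p = 0.0164 by limma), with array weights (-1.50, adjusted p = 0.00481 by limma) and without P 3 (-1.66, adjusted p = 0.000528 by limma). More probes passed over the whole table in these fits, 1655, 154 and 121 against 84. It missed in the authors' log2 values (-1.79, adjusted p = 0.312 by limma) and with plain background subtraction (-1.81, adjusted p = 0.277 by limma). It also missed in the plain equal-variance test (adjusted p = 0.337). With any single array other than P 3 left out it was not called (adjusted p = 0.138 to 0.402 by limma). Where on the transcript the probes lie was not analysed here. Of the 2 measured metallothioneins, which buffer zinc, neither was called (Mt1 0.17 ± 0.12, Mt3 -0.13 ± 0.14).

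**Figure D2:**
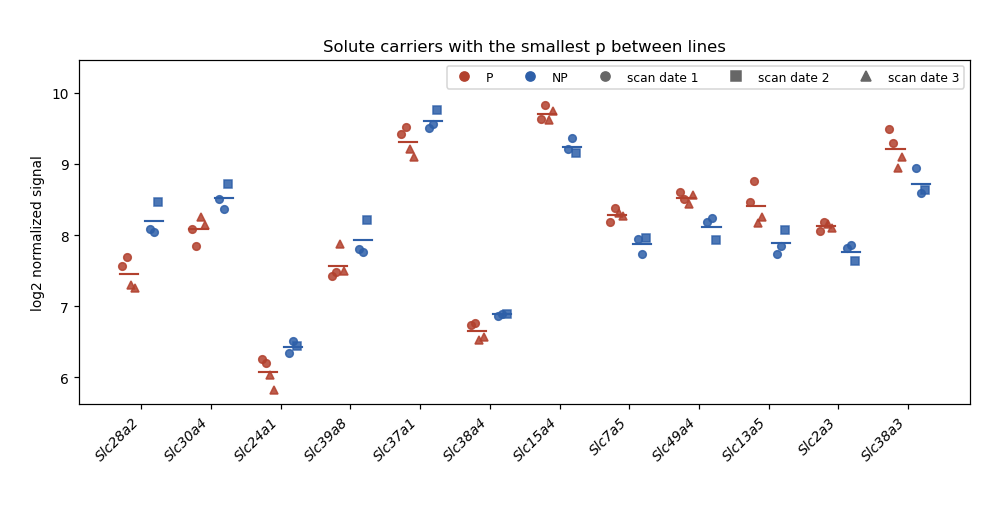
Log2 normalized signal of the 6 lower and 6 higher solute carriers with the smallest p, 1 point per rat, red for P and blue for NP. Bars are group means, and marker shape gives the scan date. Slc24a1, among the lower genes, was above background on no P array. In Slc28a2 and Slc30a4 every blue point lies above every red one, and in Slc15a4, Slc7a5, Slc49a4, Slc13a5 and Slc2a3 every red point lies above every blue one.

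Of the 30 genes with more than 1 tested probe, 18 had the same sign on all probes and 12 did not. The range between probes of a gene had a median of 0.16 and exceeded 0.5 in 4 genes, with the widest, 1.14, in Slc39a7. The fatty acid carrier Slc27a1 differed by 0.17 ± 0.15 and 0.51 ± 0.18 on its probes, the first of which gave 0.062 without NP 4 and 0.26 without P 4. Slc27a2 of the same family differed by -0.27 ± 0.18 and -0.06 ± 0.12. In Slc22a25, named after its values were seen, the probes gave 0.12 and -0.41.

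**Figure D3:**
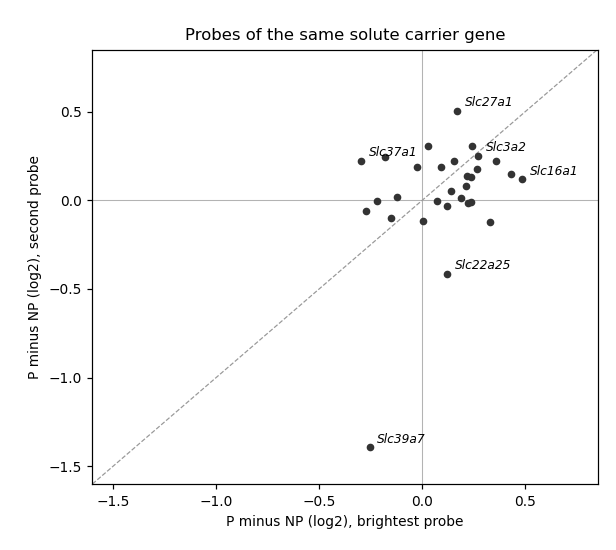
P minus NP difference (log2) of the second probe against that of the brightest probe, 1 point per solute carrier with more than 1 tested probe. The dashed line marks equal values. Slc39a7 stands far below it, at -0.25 and -1.39.

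Ion carriers of the plasma membrane showed no called line difference. Slc12a2, the chloride-loading cotransporter, read 9.96, 10.04, 10.54 and 10.59 in P 1 to P 4 and 10.53, 10.45 and 10.95 in NP 2 to NP 4 (-0.36 ± 0.19, adjusted p = 0.479 by limma). Its counterpart Slc12a5, which extrudes chloride from neurons, differed by 0.22 ± 0.15. Of the 3 measured kinases that act on these cotransporters none was called, and Stk39 had the smallest p (-0.38 ± 0.16).

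The bicarbonate exchangers Slc4a3 (0.05 ± 0.26) and Slc4a10 (-0.21 ± 0.14) and the calcium exchangers Slc8a1 (0.22 ± 0.13), Slc8a2 (-0.024 ± 0.23) and Slc24a2 (0.14 ± 0.28) all overlapped between the lines. Second probes gave -0.014 ± 0.12 for Slc8a1 and 0.19 ± 0.18 for Slc8a2. Slc26a1, a sulfate and anion exchanger, read 6.66 to 6.86 in P and 6.11 to 6.64 in NP (0.35 ± 0.14), and differed by 0.21 without NP 4. Slc24a1, the calcium exchanger of rod photoreceptors, was above background on no P array and on all 3 NP arrays, at 5.83 to 6.26 against 6.34 to 6.52. With the dim signals replaced by the lowest signal above background it was at least 1.17-fold higher in NP. It passed the filter on dim probes only through the NP arrays, so no test of it is given. The counts over all tested genes still include it. Its second probe was above background on 2 arrays, both of P, and was not tested.

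Mitochondrial carriers lay above 0 for 13 of 16 genes, with a median of 0.16 and none called. Slc25a10, the dicarboxylate carrier, read 7.57 to 8.14 in P and 6.94 to 7.88 in NP (0.54 ± 0.22, adjusted p = 0.401 by limma), and differed by 0.31 without NP 4. Slc25a3, the phosphate carrier, had the highest difference of all, 0.57 ± 0.29 (adjusted p = 0.472 by limma). It rested on NP 4 at 9.46, while NP 2 and NP 3 both read 10.68 and P 1 to P 3 read 10.70, 10.83 and 11.01, and its P 4 spot was excluded. Without NP 4 it was 0.17. The adenine nucleotide carriers Slc25a4 (-0.08 ± 0.24) and Slc25a5 (0.022 ± 0.17), the glutamate carrier Slc25a22 (0.015 ± 0.22) and Slc25a27, a neuronal uncoupling protein (0.24 ± 0.12, second probe -0.0098 ± 0.13), were not called. Slc35f6 of the nucleotide sugar class read 8.65 to 9.21 in P and 8.45 to 8.60 in NP (0.43 ± 0.14, adjusted p = 0.34 by limma, second probe 0.15 ± 0.21).

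Values of the lines stood apart, with no overlap, in 22 of the 121 tested solute carriers with 7 values (18.2%). Of all such probes 13.3% did, and of such named genes 12.5%. In 17 carriers P was higher (14.0%, against 6.91% of probes and 7.61% of named genes). In 5 it was lower (4.13%, against 6.37% and 4.87%). The 5 include Slc24a1, which passed the filter on dim probes only through the NP arrays.

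Partner genes fixed in lists gave 0 calls among 9 subunits and regulators of the sodium-potassium ATPase, which makes the sodium gradient most of these carriers use. The 7 accessory glycoproteins and channels of the mitochondrial entry (smallest p Mpc1, -0.13 ± 0.10), 6 carbonic anhydrases (Car3, -0.34 ± 0.14) and 3 exchanger regulators (Pdzk1, -0.25 ± 0.14) also gave 0. In the ATPase list Atp1b3 had the smallest p (0.21 ± 0.16). Of 9 tested organic anion transporting polypeptides, carriers named outside the number scheme, 0 were called, and Slco2b1 had the smallest p (0.36 ± 0.11). At an unadjusted p under 0.05 these lists held Stk39 and Car3 among the lower and Slco2b1 among the higher genes. With scan date as a block, described next, 1 of 3 exchanger regulators and 1 of 9 tested organic anion transporting polypeptides were called. None was called in the other partner lists, and 5.72% of all probes were. Nherf1, a scaffold of proton exchangers, was higher in P (0.74, adjusted p = 0.0238 by limma). The barrier carrier Slco1a4 was lower (-0.63, adjusted p = 0.0429 by limma). Without the block Nherf1 and Slco1a4 differed by 0.33 and -0.34 and were not called. P 1 and P 2 also differed from P 3 and P 4 in Nherf1 (0.98, adjusted p = 0.00433 by limma) and Slco1a4 (-0.72, adjusted p = 0.0127 by limma).

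With scan date as a block the line term rests on date 1, on NP 2, NP 3, P 1 and P 2. In that fit 7 of 131 solute carriers were called (5.34%), against 5.72% of all probes. Higher in P were 5 (1.65% of all probes) and lower 2 (4.07%). Slc13a5 differed by 0.82 ± 0.14 (adjusted p = 0.0189 by limma), Slc38a5 by 0.77 ± 0.17 (adjusted p = 0.036 by limma) and Slc38a3 by 0.63 ± 0.16 (adjusted p = 0.0457 by limma). Slc5a5, the sodium-iodide symporter, read 8.57, 8.66, 7.86 and 8.03 in P 1 to P 4 and 7.93, 7.82 and 7.88 in NP 2 to NP 4, so P 1 and P 2 stood apart from all other rats. Its blocked difference was 0.74 ± 0.13 (adjusted p = 0.0207 by limma), and that of Slc35f6 0.57 ± 0.14 (adjusted p = 0.0419 by limma). The 2 lower genes were Slc25a4 (-0.63 ± 0.15, adjusted p = 0.0383 by limma) and Slc12a2 (-0.49 ± 0.12, adjusted p = 0.0481 by limma). Within date 1 alone 6 were called (4.58%, against 6.4% of all probes), with Slc12a2 missing. The 7 became 0 with plain background subtraction, in the authors' log2 values and without NP 2, NP 3 or P 2, and 4 without P 1. With 75th percentile scaling, under which the median of all probes was 0.13 in place of 0.027, 3 were called, all higher. Of 46 tested cell type markers 4 were called in the blocked fit (8.7%, against 5.72% of all probes), all lower in P. They were the microglial Aif1 (-1.23), Fabp7 of astrocytes (-0.94), the neuronal Nefm (-0.81) and the endothelial Abcb1a (-0.73). In the same fit 6 of 8 microglial and 4 of 8 astrocyte markers lay above 0. List medians were 0.087 for microglia, -0.027 for astrocytes, 0.011 for neurons and 0.013 for endothelium. The part of these cells in the carrier values was not tested.

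**Figure D4:**
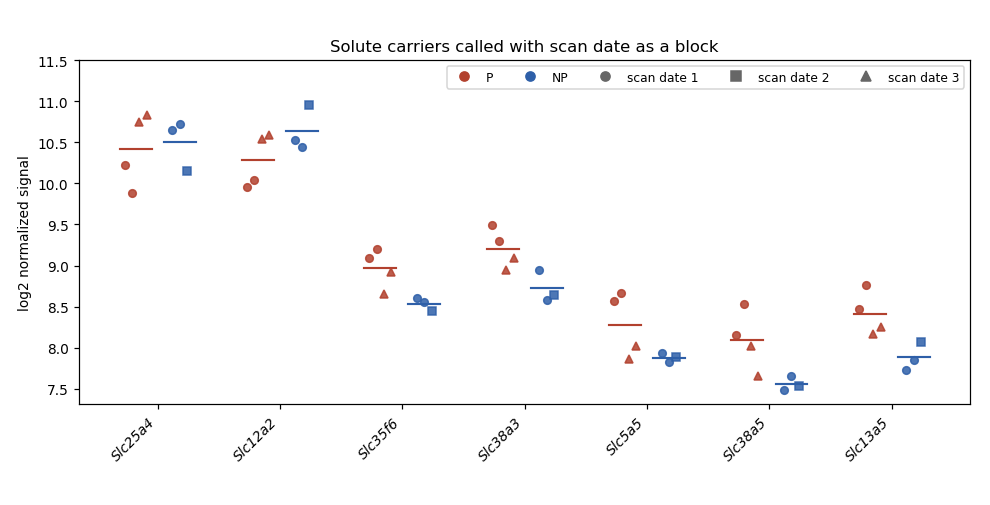
Log2 normalized signal of the 7 solute carriers called with scan date as a block, 1 point per rat, red for P and blue for NP, with group means as bars and the scan date as marker shape. In Slc25a4 and Slc12a2 the red circles (P 1 and P 2) lie below the red triangles (P 3 and P 4), and in Slc5a5 they lie above.

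The P rats of date 1 and date 3 differed from each other. Rats P 1 and P 2 against P 3 and P 4 gave 18 called solute carriers of 131 (13.7%), against 16.7% of all probes. Higher in P 1 and P 2 were 14 (7.56% of all probes) and lower 4 (9.15%). This comparison shares P 1 and P 2 with the blocked one, and scan date and animals cannot be told apart in it. Of 45 tested cell type markers 9 were called between these pairs, 5 higher and 4 lower in P 1 and P 2. Astrocyte markers were split, with 2 called higher, among them Gfap (0.71), and Fabp7 called lower (-0.65). In that list 4 of 8 markers lay above 0, with a median of 0.0365. The neuronal Nefm was called lower (-1.21), while the neuron list had a median of 0.0351. What these cells contribute to the carrier values was not tested. Slc4a3, the bicarbonate-chloride exchanger of neurons and heart, read 10.57 and 10.31 in P 1 and P 2 and 9.41 and 9.62 in P 3 and P 4, with NP between at 10.16, 9.76 and 9.85. It differed by 0.93 ± 0.17 (adjusted p = 0.00788 by limma). Slc25a22, the mitochondrial glutamate carrier, read 11.66 and 11.65 against 10.80 and 10.95 (0.78 ± 0.14, adjusted p = 0.00731 by limma).

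Others with P 1 and P 2 higher included Slc12a9 (0.80), Slc2a13, a proton-driven myo-inositol carrier (0.73), Slc25a39 (0.68), Slc5a5 (0.67), Slc45a1 (0.65), Slc35a4 (0.65), the potassium-chloride cotransporter Slc12a4 (0.57), Slc25a25 (0.54), the ascorbate carrier Slc23a2 (0.45) and the organic cation carrier Slc22a2 (0.45). Lower in them were the adenine nucleotide carriers Slc25a4 (-0.74) and Slc25a5 (-0.46), Slc12a2 (-0.57) and the cystine carrier light chain Slc7a9 (-0.41). Of the partner genes, Atp1b2, a pump subunit, was higher in P 1 and P 2 by 0.84, while Vdac3, a channel of the outer mitochondrial membrane, was lower (-0.91). The count of 18 depended on the processing. It was 1 with plain background subtraction, 0 in the authors' values and 0 without P 2, and 10 and 7 without P 1 and P 3. With 75th percentile scaling, under which the median of all probes stood at 0.24, it was 47, 43 higher and 4 lower. Of the genes with the smallest p between the lines, Slc7a5 (-0.0029), Slc2a3 (-0.0033) and Slc15a4 (0.05) differed little between these pairs of P rats, and Slc28a2 by 0.34 ± 0.12 (adjusted p = 0.0848 by limma).

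Leaving out P 1 and P 2 reduced the shift of the whole set, and leaving out P 3 and P 4 enlarged it. Without P 1 and P 2 the median difference of the solute carriers was 0.034, with 74 of 132 (56.1%) above 0, against a median of -0.0054 and 49.0% for all probes. In that fit Slc28a2 was the 1 solute carrier called (0.758%), against 189 of all probes (0.652%). Without P 3 and P 4 the median was 0.20, with 71.0% above 0, against 0.030 and 54.0% for all probes. In that fit 15 of 131 solute carriers were called (11.5%), against 3310 of all probes (11.4%), so the share of the carriers was near that of the whole table.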

How the data were processed

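Biotin-labelled RNA from 1 rat per array was hybridized to 1-colour oligonucleotide arrays, per the labels. The deposited scanner tables give, per the file headers, the mean intensity of each spot, the median intensity of its local background and a quality flag. A second table deposited by the authors holds log2 values, which follow the scaled intensity of the same array. How it was made, the scanner software and the build were not given in the sources used here.

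With limma 3.58.1 in R 4.3.3, intensities were corrected by normexp (offset 50) and quantile normalized. Outlier-flagged spots were set to missing and saturated spots kept. A probe counted as above background where it carried neither an outlier nor a near-background flag, and probes that did so on 3 or more arrays were fitted with lmFit and eBayes. Differences are P minus NP in log2, adjusted by Benjamini-Hochberg over all 29003 probes, and called at an adjusted p under 0.05. Some probes were above background on no array of a line. For their fold, that line was set, array by array, to the lowest signal above background, or to its own value if higher. The other line kept its values, so the fold is a lower bound only where all its arrays were above background. Accessions matched to RefSeq's GRCr8 table named 7207 probes. The number of arrays limits the precision. On simulated data for the comparison of the lines, with the spread of the 29003 probes and 200 changed, the fit recovered 13.7% of changes of 0.5, 69.9% of 1 and 98.2% of 2 on the log2 scale, and 6.55% of its calls were false. The simulated noise was independent between probes and arrays and held no scan date effect, so these rates need not hold for the real arrays.

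The genes, classes, lists and tests were chosen with earlier results of these data known. Named are up to 10 genes per direction by p, the smallest p of each class, the 8 of highest signal, genes detected in 1 line, called genes with the date block, and a fixed list, with their other probes. Some genes that this covers are left unreported. The fits were repeated with other corrections, scalings, filters, variance models and array weights, on the authors' values, with a block for replicate number or scan date, and with arrays left out. Those that leave out pairs of P arrays, or vary the processing of the scan date fits, were added after seeing the data. Figures were drawn with matplotlib 3.10.9.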

Additional observations from a re-analysis of the deposited data

Results flagged for a closer look

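In 52 named genes the P line was searched for 1 rat far from the other 3, and 2 genes stood out, where about 2.6 would do so by chance. In the zinc exporter Slc30a1, P 2 read 6.54 on the log2 scale, below the other P rats at 6.88 to 6.90. In the zinc and manganese importer Slc39a8, P 3 read 7.88, above the other P rats at 7.43 to 7.49. The NP line, with 3 rats, was not tested in this way.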

How the results depend on the processing

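The count of 0 called solute carriers over all arrays was also 0 under every other background correction, scaling, filter, variance model and array weighting tried, in the authors' log2 values, with the replicate block, with each of the 7 arrays left out (0 to 0), all with the brightest probe per gene, and over all arrays with every probe counted. It was 7 with scan date as a block, 6 within scan date 1, 1 without P 1 and P 2, and 15 without P 3 and P 4. Over all probes the 84 calls became 30 without normalization, 49 among probes above background on all 7 arrays, 154 with array weights, 51 in the authors' values, 35 in the plain test, 1655 with the date block, 1847 within date 1, 189 without P 1 and P 2 and 3310 without P 3 and P 4, and 51 to 121 with 1 array left out. The replicate block gave 102. The deviations of same-numbered rats correlated at 0.097, 0.0572 and 0.0207, so the numbers were not taken to pair the rats.

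The 1655 calls of the date block became 64 with plain subtraction, 868 with 75th percentile scaling, 47 in the authors' values and 72 to 908 with 1 array left out. Those of solute carriers became 0, 3, 0 and 0 to 4. The 1847 calls within date 1 became 28 with plain subtraction and 36 in the authors' values, and the 6 solute carriers 0 in both. With 75th percentile scaling 40.5% of the calls within date 1 were higher, against 29.0%. The 4834 calls of P 1 and P 2 against P 3 and P 4 became 555 with plain subtraction, 9932 with 75th percentile scaling (77.4% higher, against 45.2%), 4 in the authors' values and 394 to 3949 with 1 array left out. Those of solute carriers became 1, 47, 0 and 0 to 13. The causes were not tested.

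Over the alternatives, 1235 values of the 53 named genes kept direction and call, 24 became calls and 60 changed sign, all in genes with no call over all arrays. Slc38a2 was 0.015 with the date block and within date 1, Slc27a2 0.092 (-0.60 to 0.059 with 1 array left out), Slc25a5 -0.078 (-0.083 to 0.15, and -0.21 without P 3 and P 4), Slc16a3 0.15 (-0.13 to 0.021, 0.039 with array weights, 0.11 without P 3 and P 4), Slc22a5 0.047 (-0.22 to 0.033), Slc24a2 -0.24 (-0.26 to 0.41, and -0.018 with array weights) and Slc8a2 0.092 (-0.22 to 0.16, and 0.27 without P 3 and P 4). Without P 1 and P 2, Slc4a3 was -0.41 (replicate block -0.15, -0.15 to 0.24 with 1 array left out), Slc25a22 -0.38 (replicate block -0.12, -0.12 to 0.17), Slc25a4 0.29 (-0.26 to 0.097), Slc45a1 -0.21 (-0.014 to 0.23) and Slc22a3 -0.062 (-0.050 to 0.10, replicate block -0.0045, 75th percentile scaling -0.017, cyclic loess -0.015). Slc16a7 was 0.013 with no background subtraction. The second Slc39a7 probe was also called with 75th percentile scaling (-1.36, adjusted p = 0.0449 by limma), the replicate block (-1.36, adjusted p = 0.00399), within date 1 and without P 3 and P 4, and over its alternatives the adjusted p ran from 0.000227 to 0.985. The 7 rats allow only wide intervals, and Slc24a1, Slc34a2 and Slc7a12 lay near background.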
